A study of Mus musculus with 6 samples.

Results

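The 10 genes described here, Mecom, Mllt3, Hlf, Gata2, Erg, Tal1, Lmo2, Mn1, Ndn and Runx1, encode nuclear regulators of haematopoietic stem cells. They were named as a list, and every probe set that the platform annotation assigns to 1 of them alone was read. All 10 were measured, among 18193 genes, through 29 of the 45037 probe sets of the array. The comparison asks whether these genes differ in their RNA level between LSK cells with normal and with lowered Ikaros.

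LSK cells are the lineage-negative, Sca1+ and c-Kit+ cells of the bone marrow, a fraction that holds the haematopoietic stem cells and the multipotent progenitors. They were sorted from C57BL/6 mice of 6 to 7 weeks of age that carried normal Ikzf1 alleles (wild type, WT) or the hypomorphic allele IkL on both chromosomes (IkL/L). With IkL, cells make less Ikaros, a zinc finger transcription factor. There were 3 Affymetrix arrays per genotype. RNA of WT cells came from single mice and that of IkL/L cells from 2 mice pooled for each sample, and pooling and genotype cannot be told apart. All values are deposited log2 values made with RMA, a difference is IkL/L minus WT on that log2 scale, and a gene with several probe sets was read from the one with the highest mean over the 6 arrays. A gene or probe set is called changed where its limma p, adjusted over all probe sets by the Benjamini-Hochberg method, is under 0.05. A p-value sets the difference between genotypes against the spread of the 3 samples within each, moderated by limma over all probe sets. That spread may be partly technical, and it comes from single mice in WT and pools of 2 in IkL/L. In a sorted population measured in bulk, fewer cells of a type and less RNA per cell cannot be told apart.

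Stem cells of the blood are kept by a small set of transcription factors that act on shared enhancers. TAL1 binds DNA at E-boxes together with a GATA factor, with LMO2 and LDB1 as the bridge between them, and ERG, FLI1 and RUNX1 bind beside this complex. MECOM (EVI1), HLF, MLLT3, MN1 and NDN are known for high activity in the most primitive cells and for roles in self-renewal, quiescence or myeloid leukaemia. Ikaros is best known for its part in the first steps towards the lymphoid lineage, and it also acts in stem and progenitor cells.

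Mn1 was the 1 gene of the 10 whose change passed the threshold. Its level in IkL/L LSK cells was lower by 0.96 on the log2 scale, a fold of 1.95, in each of 3 arrays. Hlf and Mecom lay lower by less, with no overlap between the genotypes, and Ndn lay lower with a wide spread among the IkL/L arrays. Tal1, Lmo2, Runx1, Erg and Gata2 make up or accompany the TAL1 complex. In the probe sets they were read from, they differed by 0.30 or less in either direction, and none of the 5 was called. Other probe sets differed by up to 0.77 for Erg, 0.48 for Gata2 and 0.31 for Runx1, and were not called either. The count of 1 called lower, of 10, stands beside 0.242% of all genes called lower, and the count of 0 called higher beside 0.748% of all genes. Unadjusted p-values were under 0.05 for 4 of the 10, Mn1, Mecom, Hlf and Ndn, against 11.2% of all genes.

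**Figure D1:**
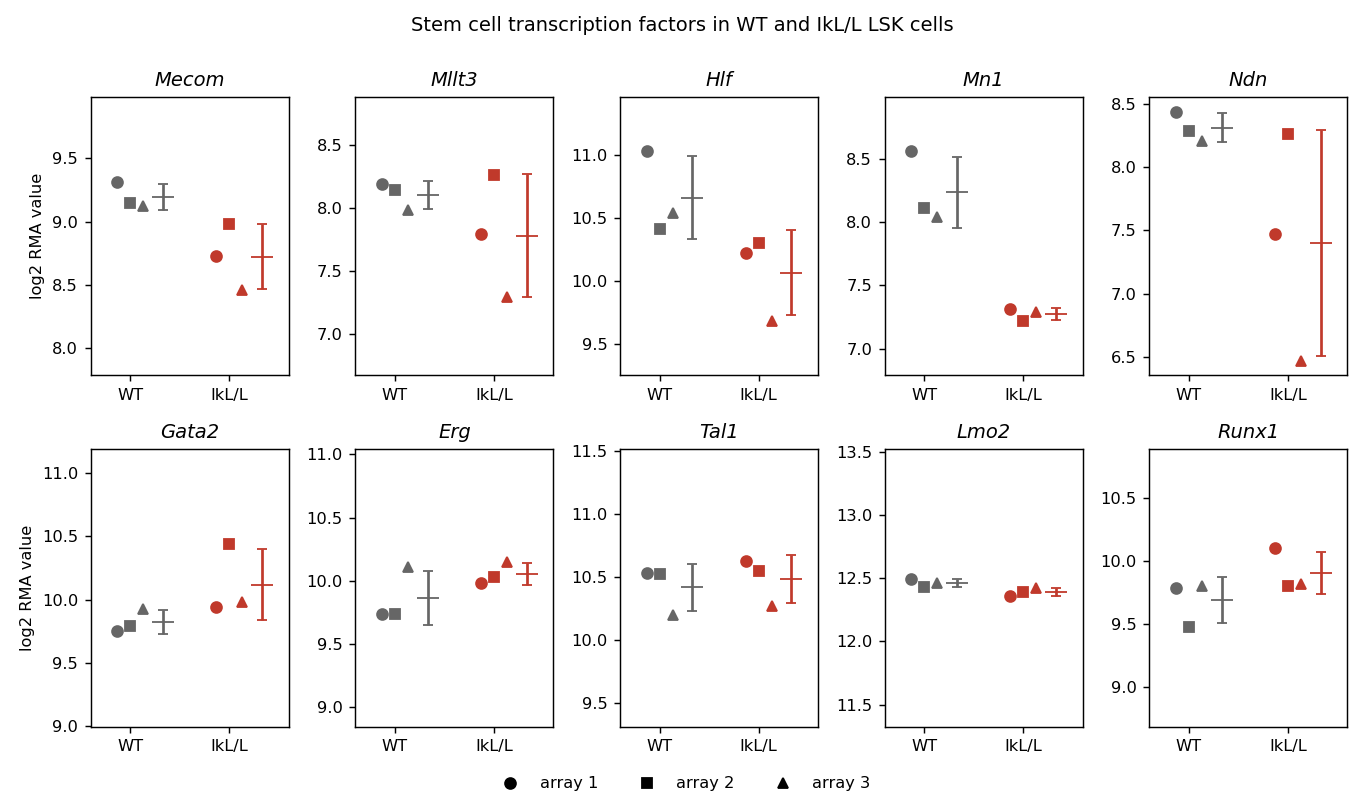
Log2 RMA value (vertical axis, a span of equal length in each panel) of the 10 genes on the 3 WT arrays (grey) and the 3 IkL/L arrays (red), 1 symbol per array, with mean and SD beside them. The genotypes stand apart by 0.73 for Mn1, and the IkL/L values of Ndn spread from 6.47 to 8.26.

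The upstream sequence is shown for those genes of the 4 just named that have an entry in the RefSeq promoter table, to show the letters near their starts that could be read by the factors discussed. Each is the 250 bases before an annotated start in assembly GRCm38.p6, written 5′ to 3′ on the strand of the gene. Capitals mark AGGAA, whose GGAA core is read by ETS factors such as ERG and also by Ikaros, TGGGAA, a further Ikaros motif, and GATAA, a core read by GATA factors, each searched on both strands, and a match on the other strand stands in capitals as its reverse complement. The first and the second motif end in the same letters but cannot overlap fully.
Hlf, chr11:90390918-90391167, minus strand: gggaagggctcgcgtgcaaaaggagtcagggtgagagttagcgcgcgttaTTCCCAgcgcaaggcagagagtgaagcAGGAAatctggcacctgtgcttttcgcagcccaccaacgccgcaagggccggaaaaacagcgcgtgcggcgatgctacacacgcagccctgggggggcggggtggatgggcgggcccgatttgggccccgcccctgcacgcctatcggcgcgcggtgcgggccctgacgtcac
Mecom, upstream start, chr3:30509760-30510009, minus strand: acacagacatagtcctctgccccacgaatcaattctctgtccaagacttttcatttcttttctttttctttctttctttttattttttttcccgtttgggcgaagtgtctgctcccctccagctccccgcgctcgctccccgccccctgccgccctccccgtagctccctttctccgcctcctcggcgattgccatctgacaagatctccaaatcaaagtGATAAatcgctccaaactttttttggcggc
Mecom, downstream start, chr3:30013205-30013454, minus strand: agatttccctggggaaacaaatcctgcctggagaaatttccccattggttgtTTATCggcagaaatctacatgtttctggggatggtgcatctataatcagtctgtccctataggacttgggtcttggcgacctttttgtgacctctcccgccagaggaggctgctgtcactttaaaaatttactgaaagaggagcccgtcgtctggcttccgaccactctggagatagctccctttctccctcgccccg
Ndn, chr7:62348027-62348276, plus strand: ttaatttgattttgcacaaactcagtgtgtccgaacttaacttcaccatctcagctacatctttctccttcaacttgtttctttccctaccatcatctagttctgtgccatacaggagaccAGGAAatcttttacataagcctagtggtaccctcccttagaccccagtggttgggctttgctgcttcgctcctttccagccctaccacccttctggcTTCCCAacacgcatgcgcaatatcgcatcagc

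The windows of Hlf and Ndn each hold 1 AGGAA and 1 TGGGAA, and each of the 2 Mecom windows holds 1 GATAA and neither of the other motifs. Over the 8 members with an entry there were 15 windows, of which 8 hold AGGAA, 4 hold TGGGAA and 4 hold GATAA. Among all 32851 windows of the table, 60.3% hold AGGAA, 21.6% hold TGGGAA and 22.6% hold GATAA. A match is a description of the letters and not a bound site.

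Mn1 encodes a transcriptional coregulator without a DNA-binding domain of its own, joined to ETV6 in a fusion of human myeloid leukaemia. Its values were 8.56, 8.11 and 8.04 on WT arrays 1 to 3, and 7.31, 7.22 and 7.29 on IkL/L arrays 1 to 3. Every IkL/L value lay below every WT value, with a gap of 0.73 between the groups. The difference of -0.96 had a 95% interval from -1.30 to -0.63 and an adjusted p of 0.0376 in limma. Mn1 was read by 1 probe set, so no second one checks it. Its IkL/L values spread little, with an SD of 0.05 (n = 3), and its WT values more, with an SD of 0.28 (n = 3). Among the 44 genes called lower it ranked 32 by p and 28 by the size of the difference.

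The call of Mn1 was near the threshold and rested on most arrays. It was called without WT array 3 (adjusted p = 0.0364) and lost without WT array 1 (-0.80, adjusted p = 0.0797), WT array 2 (-1.02, 0.0656) or IkL/L array 1 (-0.98, 0.17), 2 (-0.93, 0.137) or 3 (-0.97, 0.108). The WT arrays also differed in stromal markers: the mean log2 value of 6 markers of stroma was 7.67, 6.91 and 6.42 on WT arrays 1 to 3 and 6.04 to 6.33 on the IkL/L arrays, with 0 of the 6 called. These markers did not move alike. The collagen gene Col1a1 read 6.36, 5.47 and 4.43 in WT and 3.75 to 4.16 in IkL/L, and Col1a2 and Sparc had the same order of WT arrays. Cxcl12 read 6.41, 4.64 and 5.86 in WT and differed by -0.76. Lepr read 4.1, 4.4 and 4.29 in WT, below the median of its array on all 6 arrays, and differed by -0.32. Pdgfrb was higher in IkL/L by 0.07. The median difference of the 6 markers was -0.98, and 1 of them differed by more than 0. Against WT array 3 alone, which had the lowest of these means in WT, Mn1 differed by -0.77 (unadjusted p = 0.00115, adjusted p = 0.327 in limma). That fit has 1 WT array and takes the spread from the IkL/L arrays, so its p says little, and the part of stromal RNA in the difference was not tested. Mecom, Mllt3, Tal1 and Ndn also fell from WT array 1 to 3, while Hlf, Gata2, Erg, Lmo2 and Runx1 did not have this order. For these genes the part of stromal RNA was not tested either.

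Hlf encodes a PAR bZIP factor, at high level in stem cells and lost as they mature. Its brighter probe set read 11.03, 10.41 and 10.54 in WT and 10.22, 10.30 and 9.68 in IkL/L. Its other probe set read 10.39, 9.87 and 10.04 in WT and 9.45, 9.69 and 9.37 in IkL/L. In both, all IkL/L values lay below all WT values, and WT array 1 was the highest. The differences were close, -0.59 (95% interval -1.08 to -0.10, adjusted p = 0.447) and -0.60 (-0.95 to -0.24, adjusted p = 0.228), and neither was called by limma.

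Mecom encodes the zinc finger factor EVI1 and its longer PR-domain form. The probe set with the highest mean read 9.31, 9.15 and 9.12 in WT and 8.73, 8.98 and 8.46 in IkL/L, again without overlap. The difference was -0.47 (95% interval -0.80 to -0.14), with an unadjusted p of 0.0108 and an adjusted p of 0.328 in limma. The other 2 Mecom probe sets lay below the median of their array on all 6 arrays and differed by 0.09 and 0.08. Averaged over the 3 probe sets, the difference of Mecom was -0.10 (adjusted p = 0.823), since the dim ones enter with equal weight.

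Mllt3 encodes AF9, a reader of acylated histones and a partner of the DOT1L and super elongation complexes. It read 8.19, 8.14 and 7.98 in WT and 7.79, 8.26 and 7.29 in IkL/L. The groups overlapped, because IkL/L array 2 was above all WT arrays while IkL/L arrays 1 and 3 were below them. The difference was -0.32 (95% interval -0.84 to 0.19, adjusted p = 0.747), and -0.08 without IkL/L array 3. A second probe set differed by -0.38 (adjusted p = 0.63), and the remaining one, dimmer than the array median on 5 arrays, by -0.02.

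Ndn encodes necdin, a growth-restraining MAGE protein expressed from the paternal allele and linked to stem cell quiescence. Its values were 8.44, 8.29 and 8.21 in WT and 7.47, 8.26 and 6.47 in IkL/L. IkL/L array 2 lay within the WT range, array 1 below it and array 3 further below. The difference of -0.91 had a 95% interval from -1.79 to -0.03, an unadjusted p of 0.0438 and an adjusted p of 0.548 in limma, and it ranged from -1.34 without IkL/L array 2 to -0.44 without IkL/L array 3. The SD of the IkL/L values was 0.89 (n = 3) against 0.12 (n = 3) in WT, and 0.165% of all genes had an IkL/L SD as large. For comparison, the median SD of all genes was 0.12 in IkL/L and 0.13 in WT.

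The spread of Ndn was the same in its other probe sets. Ndn has 8, and the 5 with a mean above the array medians all had IkL/L array 2 highest and IkL/L array 3 lowest among the mutant arrays. Besides the one above, they differed by -0.98, -1.05, -0.68 and -0.69, with adjusted p-values from 0.473 to 0.669. The remaining 3 were below the median of every array and differed by 0.09, -0.08 and -0.02. These probe sets share a transcript and the same RNA, so they show that the reading of an array is stable and add no samples. Several of them carry the suffix x, which Affymetrix gives where some probes may match other transcripts.

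Imprinted genes other than Ndn, which was not called either, gave no calls. Of 12 imprinted genes listed, 11 were measured and 0 were called, with differences from -0.10 to 0.34 and a median of -0.01. Of the 11, 0 had an unadjusted p under 0.05, against 11.2% of all genes. For 6 of the 11, the WT mean was below the array medians, so that a lower level could hardly have been seen. Magel2, Snrpn and Peg12, named after their values were seen because they lie in the imprinted cluster that holds Ndn, were dim and differed by -0.01, -0.03 and -0.09. The 3 imprinted genes with the smallest p were Meg3 (0.34, adjusted p = 0.766), Cdkn1c (0.30, 0.8) and Peg12 (-0.09, 0.848).

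The order of the mutant arrays was shared by 4 of the 10 genes. Mecom, Mllt3, Hlf and Ndn were each highest on IkL/L array 2, intermediate on array 1 and lowest on array 3, an order found in 20.0% of all 18193 genes. The second Mllt3 probe set did not have it, with 6.50, 6.42 and 5.85 on IkL/L arrays 1 to 3. The range between the mutant arrays was 1.78 for Ndn, 0.97 for Mllt3, 0.62 for Hlf and 0.52 for Mecom. Mn1 did not have this order, and its mutant arrays lay within 0.09 of each other. Of 6 LSK markers 2 had the order, Slamf1 (CD150, a marker of stem cells) and Procr (the stem cell receptor EPCR), and Kit, Cd34, Cd48 and Flt3 did not. It was also that of 3 of 5 erythroid, 3 of 6 megakaryocytic, 4 of 6 endothelial, 1 of 7 lymphoid and 1 of 6 stromal markers, and of 0 of 6 granulocyte and monocyte and 0 of 5 mast cell and basophil markers. In the lists of related genes, 6 of 13 relatives of the members, 4 of 15 other stem cell transcription factors and 4 of 13 textbook targets had it. So did 2 of 13 partners of the TAL1 complex, 2 of 14 cofactors and 3 of 11 imprinted genes. Slamf1 was at 6.15, 6.58 and 5.25 on IkL/L arrays 1 to 3, and Kit at 11.07, 11.30 and 11.35. The cell makeup of the pools and its part in this order were not tested.

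**Figure D2:**
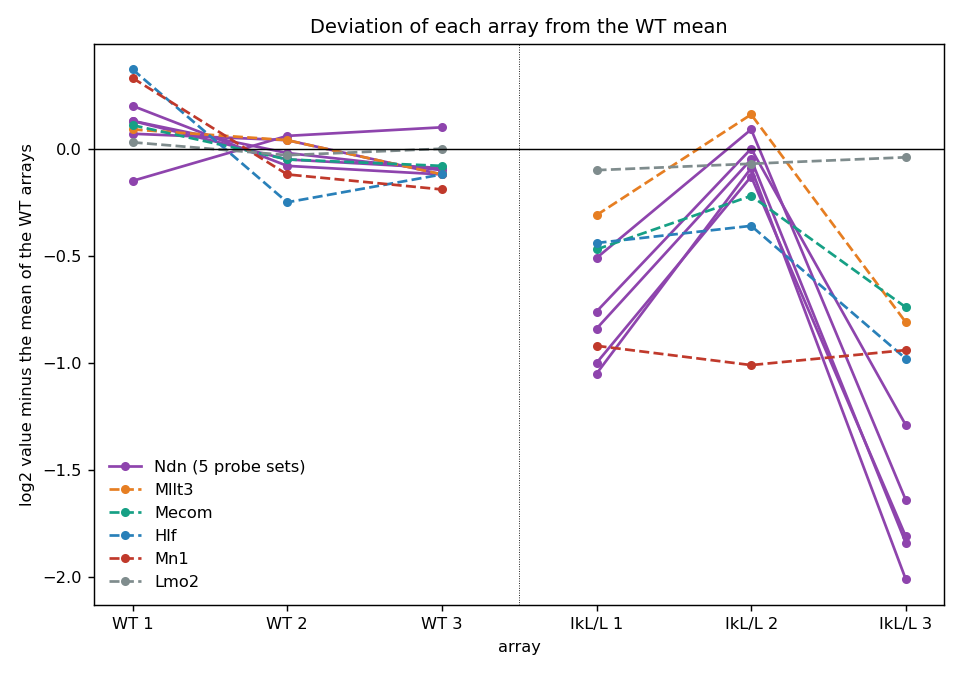
Log2 value minus the WT mean (vertical axis) on each of the 6 arrays for the 5 brighter Ndn probe sets (solid lines) and for the other members whose difference was below 0 (dashed lines). Lines only join the points of 1 probe set within a genotype, and the Ndn probe sets reach their lowest points on IkL/L array 3 while Mn1 stays level over the 3 mutant arrays.

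Among the genes of the TAL1 complex and its companions, Lmo2 was the steadiest. LMO2, the LIM-only bridge of the complex, read 12.49, 12.43 and 12.46 in WT and 12.36, 12.39 and 12.42 in IkL/L. The groups did not overlap, with a gap of 0.01, but the difference was -0.07 (95% interval -0.27 to 0.13, adjusted p = 0.868). The SD was 0.03 in both genotypes (n = 3 each), and 94.7% of all genes had an IkL/L SD at least as large.

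Tal1, the basic helix-loop-helix factor that gives the complex its E-box contact, read 10.53, 10.52 and 10.20 in WT and 10.63, 10.55 and 10.27 in IkL/L. The groups overlapped and differed by 0.07 (95% interval -0.25 to 0.39, adjusted p = 0.928). The sign turned without WT array 3 (-0.04) and without IkL/L array 1 (-0.01). The interval leaves room for a change of 0.39 in one direction and 0.25 in the other.

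Gata2, the GATA factor of stem and early progenitor cells, read 9.75, 9.79 and 9.93 in WT and 9.94, 10.44 and 9.98 in IkL/L. The groups did not overlap, by a gap of 0.01, and IkL/L array 2 stood above the rest. The difference was 0.30 (95% interval -0.04 to 0.63, adjusted p = 0.631). The second probe set read 7.31, 7.48 and 7.87 in WT and 7.91, 8.37 and 7.83 in IkL/L, a difference of 0.48 (0.05 to 0.91, adjusted p = 0.499). Without IkL/L array 2, the difference of the first was 0.14.

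Erg, an ETS factor needed for stem cell maintenance, read 9.74, 9.74 and 10.11 in WT and 9.98, 10.03 and 10.15 in IkL/L. The difference was 0.19 (95% interval -0.10 to 0.49, adjusted p = 0.737), with WT array 3 among the mutant values. The second probe set showed the same array even more plainly, at 6.28, 6.34 and 7.50 in WT and 7.51, 7.62 and 7.29 in IkL/L. Its difference was 0.77 (0.07 to 1.46, adjusted p = 0.513), and without WT array 3 it was 1.16 and called (adjusted p = 0.0197). With WT array 3 as the only WT array, the first probe set differed by -0.06.

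Runx1, the DNA-binding subunit of core binding factor, has 6 probe sets, and all differed by more than 0, from 0.02 to 0.31. The brightest read 9.79, 9.48 and 9.80 in WT and 10.10, 9.80 and 9.82 in IkL/L. The groups touched at 9.80 to 2 decimals, with the mutant values on the upper side. Its difference was 0.22 (95% interval -0.09 to 0.52, adjusted p = 0.714). Adjusted p-values of the other 5 ran from 0.565 to 0.978, and none was called.

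Over the list, the median difference was -0.20, against -0.02 for all genes, with a range from -0.96 to 0.30. The 10 genes were not one block, as 4 differed by more than 0 and 6 by less. In 4 of them, Mecom, Hlf, Lmo2 and Mn1, the 3 IkL/L values lay below the 3 WT values, a pattern of 9.59% of all genes. In 2, Gata2 and Runx1, they lay above, a pattern of 7.62% of all genes. The gaps of Lmo2, Gata2 and Runx1 were 0.01 or less, so that a small shift of 1 array would close them.

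By probe set, 1 of 29 was called, against 0.557% of all probe sets. The IkL/L values lay below the WT values in 7 of the 29 (8.36% of all probe sets) and above in 2 (6.06%). Among the 7 are both Hlf probe sets and the Ndn ones at -0.98 and -1.05, whose gaps were 0.01 or less. Probe sets of 1 gene read the same RNA and are not independent. Unadjusted p-values were under 0.05 in 11 of the 29, against 8.84% of all probe sets, of which 8 had a lower and 3 a higher IkL/L mean, and 4 of these 11 belong to Ndn. Of the 29, 5 lay below the array medians on all 6 arrays and say little about the RNA.

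**Figure D3:**
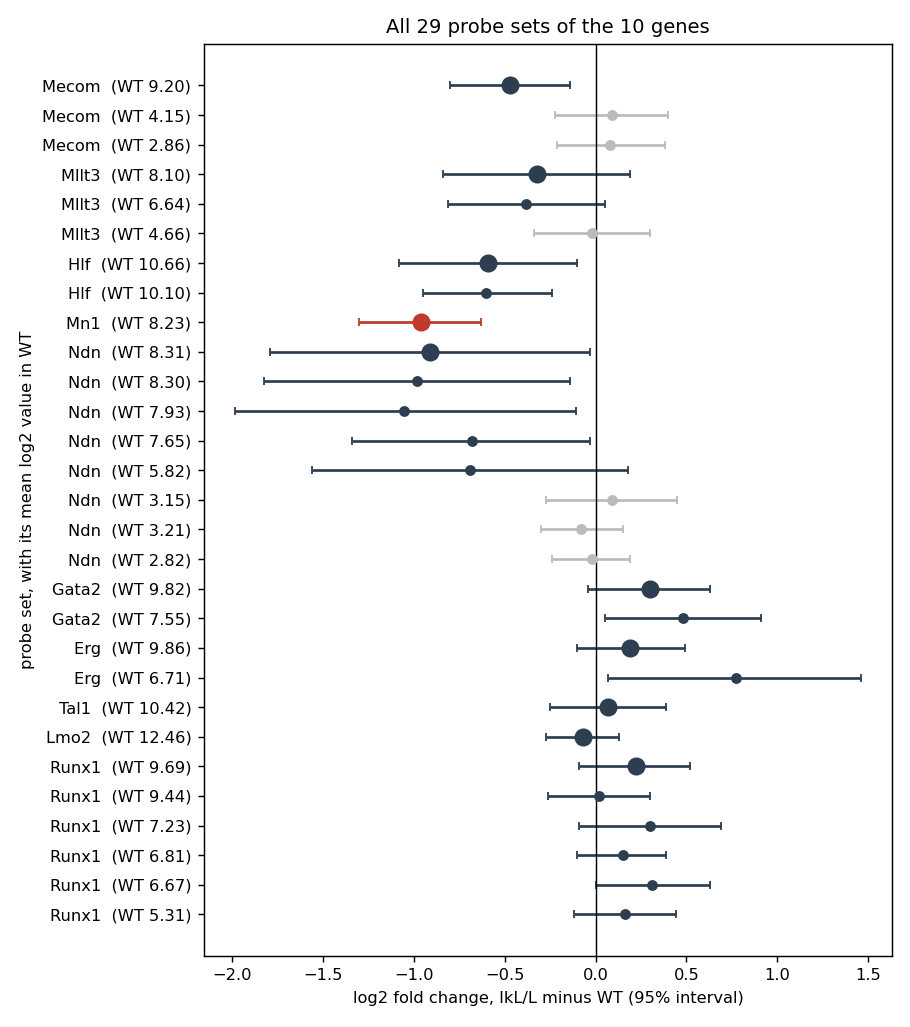
Difference between IkL/L and WT as a log2 fold change (horizontal axis), with its 95% interval for all 29 probe sets of the 10 genes, each with its mean log2 value in WT. Large points are the probe sets a gene was read from, red is the called one (Mn1), and grey ones were below the array median on 5 or 6 arrays. The 4 widest intervals are those of Ndn probe sets.

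No gene on the lists of partners and cofactors of these factors was called. Of 13 genes of the TAL1 complex and of the heptad of factors that bind with it, 0 were called, with a median of 0.04. Of the 13, 2 had an unadjusted p under 0.05, against 11.2% of all genes. Gata1, the erythroid and megakaryocytic GATA factor, read 8.17, 8.50 and 8.44 in WT and 9.15, 9.27 and 8.51 in IkL/L, a difference of 0.61 (adjusted p = 0.398). Ssbp3, which stabilises LDB1, differed by -0.30 (0.377), and Cbfb, the partner subunit of RUNX1, by -0.26 (0.58). Of 14 measured genes on the list of cofactors of MECOM, MLLT3 and RUNX1, 0 were called, with a median of -0.02. Of the 14, 3 had an unadjusted p under 0.05, against 11.2% of all genes. The smallest p-values there were those of Aff1, a scaffold of the elongation complex (0.29, adjusted p = 0.391), and the corepressor Sin3a (-0.34, 0.499). Next came Afdn, which is on this list only as a fusion partner of KMT2A (-0.42, 0.544).

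Among relatives of the 10 genes, Lmo1 rose. LMO1 is the LIM-only paralogue of LMO2, known for its activation in T cell leukaemia. It read 6.70, 6.97 and 6.47 in WT and 7.74, 7.76 and 7.69 in IkL/L, a difference of 1.02 (95% interval 0.71 to 1.33, adjusted p = 0.021 in limma). All mutant values were above all WT values. The call was lost without WT array 1 and without any 1 of the IkL/L arrays. The other 12 measured relatives were not called, among them Maged1, a MAGE relative of Ndn (0.98, adjusted p = 0.134), and Ets1 and Dbp, relatives of Erg and Hlf (-0.45 each, 0.322 and 0.378). The median of the 13 was 0.03, and 5 had an unadjusted p under 0.05, against 11.2% of all genes. Over all genes, 0.748% were called higher.

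Other transcription factors of stem cells gave 0 calls among 15 measured, with a median of -0.02. Of the 15, 6 had an unadjusted p under 0.05, against 11.2% of all genes. Hmga2, a chromatin factor of fetal and young stem cells, read 10.12, 10.08 and 9.81 in WT and 8.91, 9.34 and 9.37 in IkL/L, a difference of -0.80 (adjusted p = 0.0873). Hoxa9, a homeobox factor of self-renewal, read 11.84, 11.83 and 11.99 in WT and 11.39, 11.49 and 11.30 in IkL/L. Its difference of -0.50 had an adjusted p of 0.108, and of 0.0421 with an intensity trend and robust moderation together in limma. Tcf15, a factor of quiescent stem cells, differed by 0.62 (0.2).

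Of the textbook targets, 3 of 13 measured were called higher and 0 lower, with a median difference of 0.53 and 9 at an unadjusted p under 0.05. Over all genes, 0.748% were called higher and 0.242% lower, and 11.2% had an unadjusted p under 0.05. The lists were chosen with earlier results of these data known, so the counts are descriptive. Csf1r, the receptor of macrophage colony-stimulating factor and a target of RUNX1, read 9.91, 10.04 and 9.84 in WT and 11.71, 11.54 and 11.82 in IkL/L, a difference of 1.76 (95% interval 1.5 to 2.02, adjusted p = 0.002). Tek, which encodes the receptor TIE2 of stem and endothelial cells, read 6.27, 6.26 and 6.46 in WT and 7.48, 7.51 and 7.14 in IkL/L, a difference of 1.05 (adjusted p = 0.0171). Cdh5, or VE-cadherin, read 3.98, 3.60 and 3.89 in WT, below the array medians, and 6.34, 6.67 and 5.97 in IkL/L (adjusted p = 0.00274). The size of its difference, 2.5 on the log2 scale, is therefore uncertain and is not turned into a fold. Averages over probe sets differed by less, 1.35 for Cdh5 and 1.52 for Csf1r, and both were called. The calls of Csf1r and Cdh5 held without any 1 array, and that of Tek was lost without WT array 1 or 2 or IkL/L array 1 or 2. Against WT array 3 alone the differences were 1.85 for Csf1r, 2.44 for Cdh5, 1.26 for Lmo1 and 0.92 for Tek. In that fit, with 1 WT array and the spread taken from the IkL/L arrays, 0 of these 4 were called and 6 probe sets were called in all.

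Targets that were not called included Itga2b, or CD41 (0.86, adjusted p = 0.118), the receptor gene Tie1 (1.22, 0.208) and the platelet factor gene Pf4 (0.53, 0.408). Kit and Cd34, surface proteins of stem and progenitor cells, differed by -0.13 and -0.08. Csf1r, Tek, Cdh5, Itga2b and Pf4 are also markers of other lineages and stand in the marker lists that follow. The mean of 6 granulocyte and monocyte markers was 10.67 to 11.20 in WT and 12.07 to 12.48 in IkL/L, with Elane, Csf1r and Ms4a3 called higher. That of 6 megakaryocyte markers was 7.44 to 7.94 and 8.46 to 8.78, with Itgb3 and Vwf called higher, and that of 6 endothelial markers 5.52 to 5.70 and 6.31 to 6.64, with Cdh5 and Tek called higher. Without the target genes, the lists held 5, 4 and 4 markers. Their means were 10.82 to 11.47 in WT and 12.18 to 12.61 in IkL/L for granulocytes and monocytes (2 called higher), 6.42 to 7.08 and 7.59 to 7.86 for megakaryocytes (2), and 5.81 to 5.97 and 6.19 to 6.42 for endothelium (0). Not all markers shared the direction, as Pecam1 and Emcn of endothelium differed by 0.01 and 0.07 and Ppbp of megakaryocytes by -0.28. The part of other cell types in the target values was not tested.

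**Figure D4:**
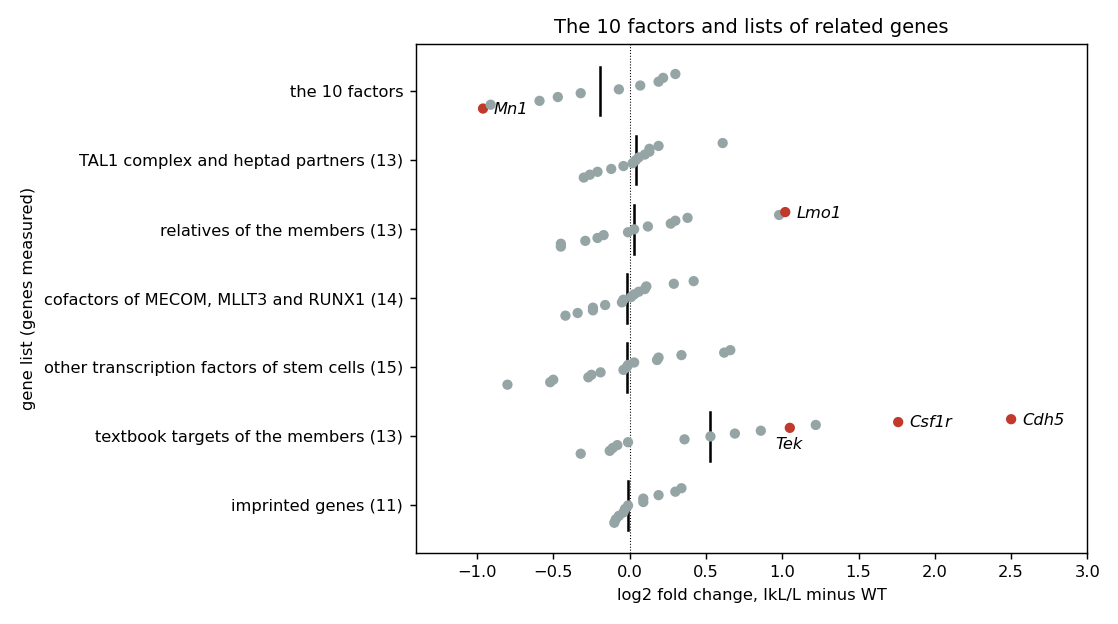
Difference between IkL/L and WT as a log2 fold change (horizontal axis) for each measured gene of the 10 factors and of 6 lists of related genes, with called genes in red and named, and the median of each list as a black line. The medians lie from -0.20 for the 10 factors to 0.53 for the textbook targets, and points are spread vertically only to keep them apart.

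The remaining marker lists bear on the cells that were sorted. Of the LSK markers, Kit was at 11.07 to 11.50, Cd34 at 12.07 to 12.27 and Cd48 at 10.66 to 11.07 over the 6 arrays, and 0 of 6 were called. Flt3, the receptor of lymphoid-primed progenitors, read 10.97, 10.79 and 10.31 in WT and 9.56, 10.05 and 9.80 in IkL/L, a difference of -0.88 (adjusted p = 0.132), and Procr differed by 0.69 (0.409). Ly6a, which encodes Sca1, was not analysed here. Erythroid markers averaged 7.79 to 8.0 in WT and 8.51 to 9.17 in IkL/L with 0 of 5 called, and mast cell and basophil markers 6.55 to 7.07 and 7.86 to 8.12 with 1 of 5, Mcpt8, called higher. Lymphoid markers averaged 6.44 to 6.83 and 6.21 to 6.42, with Rag2 called lower and Vpreb1 higher of 7. Their median difference was -0.75. All IkL/L values lay below all WT values in 4 of the 7, against 9.59% of all genes. They lay above in 1 of the 7, against 7.62%. The part of these shifts in the values of Mn1, Hlf, Mecom and Ndn was not tested.

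Ikzf1, the mutated gene, read 11.57, 11.59 and 11.44 in WT and 10.77, 10.85 and 10.93 in IkL/L in the probe set with the highest mean, a difference of -0.68 (adjusted p = 0.0307). Its other probe set differed by -0.21 (0.622). Pearson's r between pairs of arrays, over probe sets, was 0.986 to 0.995.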

How the data were processed

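RNA of sorted LSK cells was measured on 6 Affymetrix mouse arrays, 3 per genotype, with 100 ng RNA as input to a 2-cycle labelling. The values, as the authors deposited them, are log2 intensities after RMA (background correction, quantile normalization and a summary per probe set). RMA, with no version, and R 2.8 are named in the submitters' processing notes. The methods of the study describe normalization together with thymocyte arrays, and whether the deposited values stem from that run is not given in the sources used here. RMA gives no detection call and takes out changes of total RNA. The table held 45037 probe sets with 0 missing values. In the platform annotation 34945 have 1 gene, 932 several (none names one of the 10 genes) and 9160 are not listed. Symbols were updated by Entrez number through a RefSeq table of GRCm38.p6 (34741 matched, 204 kept). Promoter sequences are from RefSeq, same assembly.

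Using limma 3.58.1 (R 4.3.3), lmFit and eBayes were run over all probe sets with genotype alone in the model, and tests were two-sided. The script was tested on simulated data. Groups came from the labels, and replicate numbers were used only as names. Low values were compared with the median of their array. The members, gene lists and tests were chosen with earlier results of these data known. Named are the 10 members, from each list of related genes those called and up to 3 others with the smallest p, LSK markers, and called genes of other marker lists; stromal and other uncalled marker genes, genes of the Ndn cluster, and Kit and Cd34 among the targets were named after their values were seen. Alternatives were array weights, an intensity trend together with robust moderation, a filter at a mean of 6, gene means over probe sets, median centring, a second quantile normalization, a replicate block and leaving out each array. Leaving out WT arrays 1 and 2 together was chosen after seeing the data. Precision is limited by the number of arrays.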

Additional observations from a re-analysis of the deposited data

How the results depend on the processing

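Of 140 values of single members under alternatives, 130 kept direction and side of the threshold, 7 kept direction and lost the call (all of Mn1) and 3 turned sign. Those that turned were Tal1, from -0.04 to 0.17 when 1 array was left out, and Erg, -0.06 without WT arrays 1 and 2. The count of members called, 1, ranged from 0 to 1 when 1 array was left out, and that of member probe sets from 0 to 2; both were 0 without WT arrays 1 and 2, a fit with 1 WT array in which few calls could be made. Called related genes, 4, ranged from 2 to 4 and were 0 without WT arrays 1 and 2. Called probe sets over the whole array, 251, ranged from 57 without WT array 1 to 287, with 67 without IkL/L array 1, and were 6 without WT arrays 1 and 2. They were 355 with array weights, 325 with an intensity trend and robust moderation together, 180 with the filter, 250 with median centring and 268 after a second quantile normalization. With gene means over probe sets, 6 related genes were called, Bmi1 (lower) and Itga2b (higher) being added, and with the intensity trend and robust moderation 5, Hoxa9 (lower) being added. The filter on the mean removed Cdh5 and left 3.

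No pairing by replicate number was seen over all probe sets: deviations of same-numbered arrays from their group means correlated at 0.0084, -0.112 and 0.0789. The labels give no day of sorting or hybridisation, so a batch shared by same-numbered arrays was not tested. With the replicate block the counts were 0 members, 0 member probe sets, 2 related genes (Cdh5 and Csf1r) and 143 probe sets, and Mn1 was at -0.96 (adjusted p = 0.0724). The cause of these losses was not tested. Fits that left out arrays had fewer samples, and the fit with the block had fewer residual degrees of freedom. With 3 arrays per genotype, the interval of every member except Mn1 was wider than the difference itself, so that small changes could not be seen. Values below the array medians say little about the RNA.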
